A study of Homo sapiens with 11 samples.

Results

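Ion channel genes were taken as the protein-coding genes whose description in the deposited table holds the word channel, leaving out potassium channel tetramerization domain genes, with at least 30 fragments counted over the 11 libraries. Of 58735 genes listed, 248 had such a description, 21 of them had no count and 58 had 1 to 29 counts, which left 169 genes. Just under that limit were SCNN1A with 27 counts, CATSPER1 with 29 and KCNK3 with 29, and just over it were KCNK4 with 31, KCNN4 with 32 and NALCN with 33. The RNA came from HEK293T cells, an immortalised human embryonic kidney line, 48 h after transfection with an siRNA against NAE1 at 50 nM (siNAE1 cells, n = 3 libraries), against UBE2M at 70 nM (siUBE2M cells, n = 3) or against URM1 at 60 nM (siURM1 cells, n = 2). Control cells gave 3 further libraries. NAE1 is part of the activating enzyme, and UBE2M is a conjugating enzyme, of the NEDD8 pathway, and URM1 is a ubiquitin-like protein. The deposited labels describe the control as a control siRNA and the study's methods name a non-targeting siRNA as the negative control, while its supplement uses the name HKWT for these libraries. The dose of the control siRNA is not given in the sources used here. The question was how expression depends on URM1 and on the enzymes proposed to attach it. All libraries came from 1 cell line, and each siRNA library is labelled as a biological replicate of its knockdown.

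Ion channels are membrane proteins that let ions pass down their electrochemical gradients when voltage, a ligand, heat or stretch opens them. Potassium channels pull the membrane towards negative potentials, voltage-gated sodium and calcium channels depolarise it in nerve and muscle, TRP channels are mostly cation channels with varied stimuli, and chloride channels act at the plasma membrane and in endosomes. HEK293T cells are not excitable and are used in the field as a host for expressing cloned channels, although transcripts of many neuronal genes are found in them. Messenger RNA levels do not give channel protein, assembly at the membrane or current.

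Total counts ranged from 11733163 to 16321391 per library, and the 169 channel genes took 0.305% to 0.328% of them. Reads in CPM (counts scaled to the TMM size of each library) are used below for 1 gene across libraries, and the deposited FPKM (fragments scaled by gene length and by library size) for levels between genes. NAE1 was lower in siNAE1 cells (log2 fold change -1.36 ± 0.08, adjusted p = 9.2e-16), UBE2M in siUBE2M cells (-3.98 ± 0.08, adjusted p = 1.4e-27) and URM1 in siURM1 cells (-1.80 ± 0.10, adjusted p = 2.6e-15). The test was the quasi-likelihood test of edgeR, with p-values adjusted by Benjamini-Hochberg over 18368 genes. Here and below the error of a log2 fold change is its SE, the n is 3, 3, 3 and 2 libraries, and a called gene had an adjusted p under 0.05 and a log2 fold change of 1 or more in either direction. Of 6 genes known to be expressed in the line, VIM, NEFM, INA, CDH2, PAX2 and LHX1, each was detected in control cells, the lowest being LHX1 at 3.00 ± 0.936 CPM (SD). NEFM, a neurofilament gene, was higher in siNAE1 cells (1.19) and siURM1 cells (1.19) but not in siUBE2M cells (-0.12, adjusted p = 0.17). VIM, INA, CDH2, PAX2 and LHX1 were not called in any knockdown. INA was lower in siNAE1 (-0.68, adjusted p = 2.1e-08) and siUBE2M cells (-0.45, adjusted p = 2.4e-05) and higher in siURM1 cells (0.30, adjusted p = 0.005). The markers of other cell types, PTPRC, ALB, PECAM1, HBB and MYH7, had at most 9 counts in a library, and HBB had 0 counts in all 11 libraries. In such bulk samples, fewer cells of a kind and less RNA per cell cannot be told apart.

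In control cells the channel genes were mostly at low levels. Of the 169, 11 were at 10 FPKM or more, 56 were from 1 to under 10 FPKM, and 102 were under 1 FPKM. The highest were genes of organelle and intracellular channels: VDAC2 at 70.5 ± 2.26 FPKM (SD, n = 3), CLIC4 at 54.7 ± 4.56, CLIC1 at 50.4 ± 3.28, VDAC1 at 49.3 ± 2.33 and VDAC3 at 43.1 ± 0.198. The 3 VDAC genes encode the porins of the outer mitochondrial membrane, and the CLIC genes encode chloride intracellular channel proteins that also exist in soluble form. CLIC4, CLIC1 and VDAC1 did not differ beyond their SDs. TRPC4AP at 44.2 ± 1.16 FPKM and CLNS1A at 31.4 ± 1.44 FPKM were also among the highest, but neither encodes a pore: TRPC4AP serves in a ubiquitin ligase as well as with TRPC4, and CLNS1A is part of the methylosome. TRPC4AP and VDAC3 did not differ beyond their SDs.

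Among plasma membrane and endosomal pores the highest levels in control cells were CLCN3 (13.5 ± 1.00 FPKM), an endosomal chloride-proton exchanger, PIEZO1 (10.9 ± 0.680), a stretch-activated cation channel, HCN3 (10.4 ± 0.489), a hyperpolarisation-activated cation channel, and ASIC1 (10.2 ± 0.517), an acid-sensing sodium channel. The intervals of mean ± SD of PIEZO1, HCN3 and ASIC1 overlapped. By ion, the median level in control cells was 7.55 FPKM for the 17 chloride and anion genes, 0.987 for 5 cyclic nucleotide-gated genes, 0.673 for 26 calcium channel genes, 0.626 for 19 sodium channel genes, 0.450 for 13 other genes, 0.442 for 64 potassium channel genes and 0.340 for 25 TRP and polycystin genes. The highest potassium channel gene was KCNJ8 (8.04 ± 0.399 FPKM), an inward rectifier that forms ATP-sensitive channels, and the next was KCMF1 (7.15 ± 0.584), a ubiquitin ligase that is a channel gene by its description only. The pores of the voltage-gated sodium family were all under 1 FPKM, the highest being SCN8A at 0.862 ± 0.0669.

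Of the 169 genes, 140 passed the edgeR filter on low counts (filterByExpr) and were tested, and 29 were not, with 31 to 78 counts each over all libraries and at most 17 in 1 library. The filter keeps a gene with at least 0.667 CPM in 2 libraries, and a gene with few counts can pass it through the group in which it is highest, so the counts below do not cover all channel genes. Of the genes called, ASIC4, CATSPERD and PKD1L1 passed through siUBE2M libraries, with at most 1 library of another group over that level, and no test of these 3 is given. In siNAE1 cells 12 channel genes were called higher and 9 lower, where 5.3% and 8.61% of all 18368 genes tested were. In siUBE2M cells 11 were called higher, or 8 without these 3 genes, and 11 lower, where 3.22% and 3.89% of all genes were. In siURM1 cells 12 were called higher and 11 lower, where 2.89% and 4.73% of all genes were. As shares of the 140 tested, these were 8.57% and 6.43% in siNAE1 cells, 7.86% and 7.86% in siUBE2M cells, and 8.57% and 7.86% in siURM1 cells. By the adjusted p alone, 66, 68 and 66 channel genes differed in the 3 knockdowns, or 47.1%, 48.6% and 47.1% of those tested, beside 54.7%, 45.3% and 41.6% of all genes. The median log2 fold change of the 140 was -0.04, 0.03 and 0.06, close to 0 as for all genes. The 3 comparisons share the control libraries.

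In all, 45 channel genes were called in at least 1 knockdown against control, or 42 without the same 3 genes. The 45 were 32.1% of the 140 tested, beside 20.3% of all genes. Leaving out any 1 library kept 12 of 21 calls in siNAE1 cells, 12 of 22 in siUBE2M cells and 14 of 23 in siURM1 cells, counting the fits in which the gene was still tested. Where a call was lost in that way, the library and the value without it are given beside the genes described, and the same holds for DESeq2, the other count test that was run.

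A set of 5 channel genes was called in the same direction in each knockdown: KCNJ2 and KCNN3 were higher, and SCN11A, SCN4A and CACNG6 were lower. These were 1.43% higher and 2.14% lower of the 140, where 0.501% and 1.39% of all genes were called so in each knockdown, and the knockdowns share their control libraries. SCN11A encodes a voltage-gated sodium channel of sensory neurons. Its level was 2.54, 3.26 and 2.59 CPM in control cells. The siNAE1 cells had 0.768, 1.33 and 0.897, the siUBE2M cells 0.294, 0.590 and 0.702 and the siURM1 cells 0.811 and 0.831 CPM. Every knockdown library lay below every control library. For siUBE2M cells the log2 fold change was -2.37 ± 0.42, adjusted p = 8.3e-06. That of siURM1 cells was -1.76 ± 0.43, adjusted p = 0.00095, and that of siNAE1 cells -1.46 ± 0.37, adjusted p = 0.00094.

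SCN4A, the sodium channel of skeletal muscle, was at 6.16, 5.96 and 4.67 CPM in control cells. The siNAE1 libraries had 3.61, 1.68 and 2.51, the siUBE2M libraries 3.24, 1.84 and 1.54 and the siURM1 libraries 0.499 and 0.762 CPM. The siURM1 libraries were lowest and no knockdown library reached the control range. Log2 fold changes were -1.11 ± 0.28, adjusted p = 0.0009 for siNAE1 cells and -1.35 ± 0.28, adjusted p = 0.00015 for siUBE2M cells. For siURM1 cells it was -3.15 ± 0.44, adjusted p = 7e-08, the lowest of any channel gene tested in any knockdown against control. In direct tests SCN4A was also higher in siNAE1 cells (2.03 ± 0.46, adjusted p = 0.00024) and in siUBE2M cells (1.80 ± 0.46, adjusted p = 0.0012) than in siURM1 cells. The call in siNAE1 cells was lost without siNAE1 replicate 2 (log2 fold change -0.86, adjusted p = 0.015).

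CACNG6 encodes a gamma subunit of voltage-gated calcium channels. It was at 3.50, 3.14 and 1.96 CPM in control cells. Values were 0.384, 0.699 and 0.449 CPM in siNAE1, 0.810, 1.31 and 0.913 in siUBE2M and 1.25 and 0.623 in siURM1 libraries, and no knockdown library reached the lowest control library. Against control, siNAE1 cells had a log2 fold change of -2.45 ± 0.45, adjusted p = 7.6e-06. For siUBE2M cells it was -1.49 ± 0.37, adjusted p = 0.0012, and for siURM1 cells -1.59 ± 0.43, adjusted p = 0.0026, the last lost without siURM1 replicate 2 (log2 fold change -1.19, adjusted p = 0.073). Without siURM1 replicate 1 that value was -2.18. Its neighbour CACNG8 lies 2073 bases away on chromosome 19, on the same strand, and was not called in any knockdown (-0.49, -0.18 and -0.21).

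KCNN3 encodes a small-conductance calcium-activated potassium channel. It was at 0.725, 0.922 and 0.757 CPM in control cells. It was at 2.23, 1.33 and 1.88 in siNAE1 cells, 1.99, 1.90 and 1.33 in siUBE2M cells and 2.25 and 3.12 in siURM1 cells, so that each knockdown library was above each control library. In siNAE1 cells the log2 fold change was 1.16 ± 0.37, adjusted p = 0.0079. It was 1.11 ± 0.37, adjusted p = 0.013 in siUBE2M cells and 1.73 ± 0.39, adjusted p = 0.00036 in siURM1 cells. The call in siNAE1 cells was lost without siNAE1 replicate 1 (log2 fold change 0.98, adjusted p = 0.049).

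KCNJ2 encodes the inward rectifier that sets the resting potential of heart and skeletal muscle, and it was counted with few fragments here: 3, 10 and 5 in control libraries, 10, 6 and 23 in siNAE1, 12, 22 and 17 in siUBE2M and 22 and 23 in siURM1 libraries. The siNAE1 and control ranges overlapped, and the others did not. Log2 fold changes were 1.48 ± 0.59, adjusted p = 0.029 for siNAE1 cells and 1.65 ± 0.58, adjusted p = 0.015 for siUBE2M cells. For siURM1 cells it was 1.98 ± 0.61, adjusted p = 0.0068. In siNAE1 cells the call was lost with DESeq2 (adjusted p = 0.050) and when 1 of control replicate 1, control replicate 3 or siNAE1 replicate 3 was left out (log2 fold change 0.66 to 1.38, adjusted p = 0.077 to 0.40), and the value of 0.66 was that without siNAE1 replicate 3, the highest library of its group, against 2.05 without control replicate 2. In siUBE2M cells it was lost without control replicate 1 (1.33, adjusted p = 0.079) and without siUBE2M replicate 2 (1.48, adjusted p = 0.059).

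The promoters of 4 of these 5 genes are shown because they are the ones that moved the same way in each knockdown. They are RefSeq sequences on GRCh38.p14, each from 250 bases before the annotated start to 50 bases from it on, 5′ to 3′ on the gene's own strand, with the bases from the start on in capitals. SCN4A was not among the 123 channel genes matched in that table.
KCNJ2 (higher; chr17:70169282-70169581, plus strand): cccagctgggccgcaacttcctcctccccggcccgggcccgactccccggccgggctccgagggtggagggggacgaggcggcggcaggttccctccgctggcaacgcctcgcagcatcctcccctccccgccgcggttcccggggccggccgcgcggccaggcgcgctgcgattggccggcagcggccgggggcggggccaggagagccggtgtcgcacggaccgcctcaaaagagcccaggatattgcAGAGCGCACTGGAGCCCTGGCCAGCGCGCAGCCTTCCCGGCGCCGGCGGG
KCNN3 (higher; chr1:154870232-154870531, minus strand): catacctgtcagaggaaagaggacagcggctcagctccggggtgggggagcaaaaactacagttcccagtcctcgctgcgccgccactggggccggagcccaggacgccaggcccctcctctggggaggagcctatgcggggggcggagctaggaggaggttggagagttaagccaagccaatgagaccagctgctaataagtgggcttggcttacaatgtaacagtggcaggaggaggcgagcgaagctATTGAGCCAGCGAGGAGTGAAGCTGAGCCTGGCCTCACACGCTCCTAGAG
SCN11A (lower; chr3:39051895-39052194, minus strand): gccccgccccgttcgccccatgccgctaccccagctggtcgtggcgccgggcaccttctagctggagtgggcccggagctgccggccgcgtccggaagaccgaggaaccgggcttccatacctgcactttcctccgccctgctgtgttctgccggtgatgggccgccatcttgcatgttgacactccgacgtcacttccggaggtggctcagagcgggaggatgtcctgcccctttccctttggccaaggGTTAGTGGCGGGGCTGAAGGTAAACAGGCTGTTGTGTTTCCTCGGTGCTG
CACNG6 (lower; chr19:53991387-53991686, plus strand): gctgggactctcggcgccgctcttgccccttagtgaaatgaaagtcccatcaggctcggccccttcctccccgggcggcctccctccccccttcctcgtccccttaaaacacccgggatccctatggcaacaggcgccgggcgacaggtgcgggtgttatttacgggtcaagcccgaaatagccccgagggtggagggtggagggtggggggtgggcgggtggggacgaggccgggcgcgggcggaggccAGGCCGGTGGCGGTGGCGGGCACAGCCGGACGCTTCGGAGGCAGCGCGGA

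The GC content of these promoters was 78.0% for KCNJ2, 61.7% for KCNN3, 65.7% for SCN11A and 70.7% for CACNG6, beside a median of 66.0% over the 123 channel gene promoters and 58.7% over 35116 promoters. They held 39, 13, 23 and 29 CG dinucleotides. For motifs, 4 sets of letters were searched on both strands: TGATGNAA for the C/EBP-ATF response element, TGACNNNGC for the antioxidant response element, GAANNTTC for a unit of the heat shock element, and TTCAGCACC for the left part of RE1, which binds the repressor of neuronal genes. None of the letters was found in the 4 promoters. Over the 123 channel gene promoters the shares with a match were 2.44%, 8.13%, 2.44% and 1.63%, and over all promoters 3.62%, 13.4%, 6.77% and 0.376%. The RE1 letters were in 2 channel gene promoters, those of KCNH6 and UNC80, both of which had too few counts to be tested.

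Voltage-gated potassium channel pores are the Kv genes, KCNA to KCND, KCNH and KCNQ, whose channels repolarise the membrane. Of 20 such genes 17 were tested, and in siURM1 cells edgeR called 4 higher and 0 lower, while 4 were lower at an unadjusted p under 0.05 and DESeq2 also called 0 lower. The median log2 fold change of the 17 was 0.24 in siURM1 cells, -0.27 in siNAE1 cells and -0.23 in siUBE2M cells, where 1 gene was called higher and 1 lower in each. Of all genes tested, 2.89% were called higher in siURM1 cells, 5.3% higher and 8.61% lower in siNAE1 cells, and 3.22% and 3.89% in siUBE2M cells, so that 1 of 17 is near those shares.

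Among the Kv genes called in siURM1 cells KCNH2, the cardiac hERG channel, was at 9.84, 8.61 and 8.90 CPM in control and 22.5 and 16.5 in siURM1 cells (1.10 ± 0.16, adjusted p = 1.1e-06), and the call was lost without siURM1 replicate 1 (log2 fold change 0.86, adjusted p = 0.00074). KCNC1, which encodes Kv3.1, was just under the fold threshold in siURM1 cells (0.97 ± 0.11, adjusted p = 2.2e-08) and was lower in siNAE1 than in siURM1 cells by a called difference (-1.36 ± 0.12, adjusted p = 7.2e-11).

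KCND1 and KCNQ1 were called in other knockdowns. KCND1 encodes Kv4.1, an A-type channel. It was at 1.87, 2.21 and 1.83 CPM in control cells. The siNAE1 libraries had 4.61, 3.71 and 4.49, the siUBE2M libraries 3.90, 4.79 and 4.63 and the siURM1 libraries 0.811 and 1.32 CPM. The siNAE1 and siUBE2M libraries were above the control range and the siURM1 libraries below it, with log2 fold changes of 1.11 ± 0.25, adjusted p = 0.0003, 1.17 ± 0.24, adjusted p = 0.00018 and -0.90 ± 0.34, adjusted p = 0.029, the last under the fold threshold. The difference between siNAE1 and siURM1 cells was 2.00 ± 0.33, adjusted p = 4.9e-06, and that between siUBE2M and siURM1 cells 2.07 ± 0.33, adjusted p = 3.2e-06.

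KCNQ1, a potassium channel of heart and epithelia, was at 5.92, 4.86 and 4.92 CPM in control cells. Values were 1.54, 1.54 and 1.70 CPM in siNAE1, 3.90, 2.69 and 2.95 in siUBE2M and 2.62 and 3.46 in siURM1 libraries. All knockdown libraries were below control, and it was called in siNAE1 cells (-1.72 ± 0.26, adjusted p = 6.2e-07) but not in siUBE2M (-0.72 ± 0.22, adjusted p = 0.0083) or siURM1 cells (-0.79 ± 0.25, adjusted p = 0.012). KCNA2, a channel of axons, was called lower in siUBE2M cells (-1.39 ± 0.55, adjusted p = 0.031), although 0.221, 0.262 and 0.843 CPM overlapped the 0.725, 1.29 and 1.51 CPM of control cells. That call was lost with DESeq2 (adjusted p = 0.052) and when 1 of control replicate 2, control replicate 3, siUBE2M replicate 1 or siUBE2M replicate 2 was left out (log2 fold change -1.08 to -1.31, adjusted p = 0.072 to 0.13). Without siUBE2M replicate 3, the highest of its group, the log2 fold change was -2.23.

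The electrically silent Kv subunits, which form channels only together with other Kv subunits, had 2 calls among the 4 tested, both higher in siNAE1 cells, where 5.3% of all genes were. KCNS3 was at 1.99, 1.72 and 2.40 CPM in control and 3.92, 4.26 and 5.02 in siNAE1 cells without overlap (1.10 ± 0.28, adjusted p = 0.0011), a call that fell on the threshold without control replicate 2 (log2 fold change 1.00, adjusted p = 0.0075). KCNV1 was at 0.241, 0.307 and 0.568 CPM in control and 1.15, 1.47 and 1.70 in siNAE1 cells (1.93 ± 0.63, adjusted p = 0.0077). It was at 1.25, 0.525 and 0.983 in siUBE2M and 0.999 and 0 in siURM1 cells, and neither differed from siNAE1 cells by a called difference (0.65 ± 0.55, adjusted p = 0.35 for siNAE1 minus siUBE2M, and 1.46 ± 0.68, adjusted p = 0.081 for siNAE1 minus siURM1). KCNG1, the highest of these genes in control cells at 3.11 ± 0.285 FPKM, stayed under the fold threshold. It was lower in siNAE1 (-0.59, adjusted p = 8.1e-05) and higher in siURM1 cells (0.32, adjusted p = 0.036), with 0.05 in siUBE2M cells (adjusted p = 0.73). Between knockdowns KCNS3 was higher in siNAE1 than in siUBE2M (1.09 ± 0.28, adjusted p = 0.0019) and siURM1 cells (1.19 ± 0.32, adjusted p = 0.0035), the first lost without siUBE2M replicate 1 (0.95, adjusted p = 0.015) and without siUBE2M replicate 3 (0.95, adjusted p = 0.013) and the second without siURM1 replicate 2 (log2 fold change 0.85, adjusted p = 0.092).

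**Figure D1:**
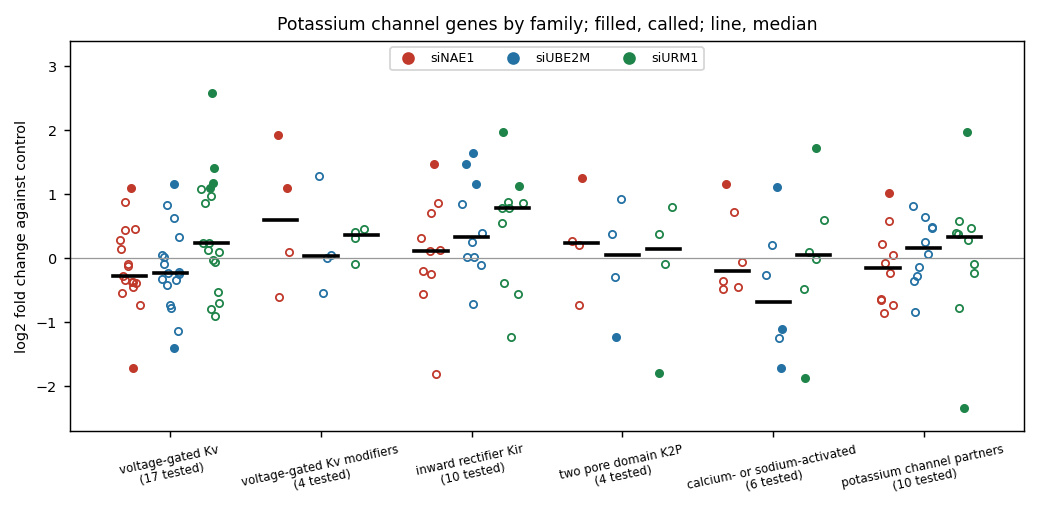
Log2 fold change against control (vertical axis) of the 51 potassium channel genes tested, one point a gene, by family and knockdown (red siNAE1, blue siUBE2M, green siURM1); filled points were called and black lines are medians. In siURM1 cells the median of every family lies above 0. It is 0.24 for Kv pores, 0.36 for Kv modifiers, 0.78 for Kir, 0.14 for K2P, 0.05 for calcium- or sodium-activated channels and 0.33 for partners.

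Inward rectifiers (Kir, the KCNJ genes), hold the resting potential. All 10 were tested, with 1 called higher in siNAE1 cells, 3 in siUBE2M cells and 2 in siURM1 cells, beside 5.3%, 3.22% and 2.89% of all genes. With edgeR and with DESeq2 0 were called lower in each knockdown, and 2, 1 and 1 were lower at an unadjusted p under 0.05. The median log2 fold change was 0.12, 0.33 and 0.78. KCNJ14, which encodes Kir2.4, was at 3.86, 3.50 and 2.84 CPM in control cells. It was at 3.15, 4.13 and 3.77 in siNAE1 cells, 9.20, 9.84 and 9.34 in siUBE2M cells and 5.93 and 9.00 in siURM1 cells. The siUBE2M and siURM1 libraries lay above the control and siNAE1 libraries, with log2 fold changes of 1.47 ± 0.19, adjusted p = 9.5e-08 and 1.12 ± 0.21, adjusted p = 4.9e-05, the second lost without siURM1 replicate 2 (log2 fold change 0.80, adjusted p = 0.014). The lncRNA gene ENSG00000268530 on the opposite strand shares 23.5% of its exon bases, and GRWD1 on the same strand 6.67%.

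KCNJ3, a G protein-gated inward rectifier (GIRK1), rose in siUBE2M cells alone. It was at 1.27, 1.29 and 2.08 CPM in control. The siNAE1 cells had 1.38, 1.33 and 1.17, the siUBE2M cells 3.83, 2.88 and 3.72 and the siURM1 cells 1.06 and 1.32 CPM, and the siUBE2M libraries were above all others. Against control its log2 fold change was 1.17 ± 0.30, adjusted p = 0.0018, and the differences from the other knockdowns were called too (-1.42 ± 0.32, adjusted p = 0.00043 for siNAE1 minus siUBE2M, and 1.54 ± 0.36, adjusted p = 0.00093 for siUBE2M minus siURM1). KCNJ8, the highest Kir gene in control cells, was not called in any knockdown (-0.56, -0.72 and -0.55).

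K2P channels (the KCNK genes), which carry background potassium current, had 4 of 8 genes tested. KCNK15 was at 1.69, 3.01 and 2.15 CPM in control cells. The siNAE1 libraries had 0.691, 1.89 and 1.52, the siUBE2M libraries 0.663, 0.787 and 1.48 and the siURM1 libraries 0.624 and 0.693 CPM, with siUBE2M and siURM1 libraries below control. Both differences were called, that of siUBE2M cells (-1.22 ± 0.40, adjusted p = 0.012) and that of siURM1 cells (-1.78 ± 0.49, adjusted p = 0.0029), and the first call was lost when 1 of control replicate 2, siUBE2M replicate 1 or siUBE2M replicate 2 was left out (log2 fold change -0.96 to -1.07, adjusted p = 0.057 to 0.092). RIMS4 on the opposite strand shares 20.1% of its exon bases and was higher in siURM1 cells (0.92). KCNK13 was at 0.302, 0.799 and 0.947 CPM in control and 1.23, 1.96 and 1.70 in siNAE1 cells (1.25 ± 0.44, adjusted p = 0.014), and that call was lost without control replicate 1 (0.90, adjusted p = 0.096) and without siNAE1 replicate 2 (1.09, adjusted p = 0.066).

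Among calcium- and sodium-activated potassium channels, besides KCNN3, KCNMA1 and KCNT1 were called. KCNMA1, the pore of the large-conductance BK channel, was at 2.54, 1.54 and 1.01 CPM in control. Values were 2.23, 2.45 and 3.86 CPM in siNAE1, 0.515, 0.721 and 1.12 in siUBE2M and 0.374 and 0.554 in siURM1 libraries. The control libraries varied widely and overlapped those of siNAE1 and siUBE2M. Its log2 fold change was 0.73 in siNAE1 cells (adjusted p = 0.086), -1.10 ± 0.42, adjusted p = 0.030 in siUBE2M cells and -1.86 ± 0.55, adjusted p = 0.0038 in siURM1 cells. The call in siUBE2M cells was lost with DESeq2 (adjusted p = 0.057) and when 1 of control replicate 1, siUBE2M replicate 1 or siUBE2M replicate 2 was left out (log2 fold change -0.68 to -1.02, adjusted p = 0.086 to 0.26), and that in siURM1 cells without siURM1 replicate 1 (log2 fold change -1.60, adjusted p = 0.063). The differences between siNAE1 and the other knockdowns, 1.83 ± 0.41, adjusted p = 0.00037 against siUBE2M and 2.59 ± 0.54, adjusted p = 9.9e-05 against siURM1, kept their calls without any 1 library. KCNMB4, the BK subunit of neurons, was at 9.24, 8.18 and 10.7 CPM in control and 17.7, 21.2 and 18.1 in siNAE1 cells (1.02 ± 0.13, adjusted p = 4.8e-08), close to the fold threshold, and its call was lost without control replicate 2 (0.94, adjusted p = 9.7e-07) and without siNAE1 replicate 2 (0.94, adjusted p = 3.9e-06) and, with a log2 fold change of 0.99 and 1.00, in fits on genes with at least 10 counts in every library or on protein-coding genes.

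KCNT1, a sodium-activated potassium channel, was at 1.45, 1.60 and 1.07 CPM in control and 0.147, 0.525 and 0.562 in siUBE2M cells, without overlap (-1.70 ± 0.50, adjusted p = 0.0039), and near control in siNAE1 (-0.44) and siURM1 cells (0.10). KCNAB3, a beta subunit of Kv channels related to aldo-keto reductases, was at 6.64, 6.89 and 3.91 CPM in control cells. It was at 4.84, 4.96 and 5.11 in siNAE1 cells, 5.60, 6.82 and 5.90 in siUBE2M cells and 1.37 and 0.900 in siURM1 cells. The siURM1 libraries were below all others, and the siNAE1 and siUBE2M libraries both overlapped control, with siNAE1 below siUBE2M. The log2 fold change in siURM1 cells was -2.34 ± 0.31, adjusted p = 8.7e-08, and the log2 difference from it was 2.11 ± 0.32, adjusted p = 1.1e-06 in siNAE1 cells and 2.41 ± 0.32, adjusted p = 8.2e-08 in siUBE2M cells. KCNE4, an inhibitory subunit of Kv channels, was counted with 12, 3 and 2 fragments in control and 17 and 25 in siURM1 libraries (1.97 ± 0.70, adjusted p = 0.017), and this call was lost with DESeq2 (adjusted p = 0.062) and when 1 of control replicate 2, control replicate 3 or siURM1 replicate 2 was left out (log2 fold change 1.59 to 1.69, adjusted p = 0.063 to 0.18). Without control replicate 1, the highest of its group, the log2 fold change was 3.10.

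Of 17 sodium channel genes tested, 4 were called lower and 1 higher in siNAE1 cells, 4 and 2 in siUBE2M cells, and 4 and 1 in siURM1 cells. The 17, like the sodium genes of the median level above, include SCNM1 and SCLT1, which are channel genes by their description only. Of the 2 higher in siUBE2M cells 1 was ASIC4, set aside above. The shares of all genes were 8.61%, 3.89% and 4.73% lower and 5.3%, 3.22% and 2.89% higher. Of the 6 voltage-gated pores, SCN11A and SCN4A fell in each knockdown as given above, and SCN2A, a channel of central neurons, rose in siUBE2M and siURM1 cells. It was at 1.39, 0.984 and 1.26 CPM in control cells. In siNAE1 cells it was at 0.691, 1.68 and 1.70, in siUBE2M cells at 4.79, 3.28 and 2.67 and in siURM1 cells at 3.18 and 2.84. The siNAE1 range spanned that of control, and the other knockdowns were above both. Against control its log2 fold change was 1.55 ± 0.33, adjusted p = 0.00018 in siUBE2M cells, 1.31 ± 0.36, adjusted p = 0.0032 in siURM1 cells and 0.16 in siNAE1 cells (adjusted p = 0.74).

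SCN4B and SCN2B encode beta subunits and lie 9063 bases apart on chromosome 11, on the same strand. SCN4B was at 5.01, 4.61 and 5.17 CPM in control cells. The siNAE1 libraries had 12.7, 9.86 and 11.8, the siUBE2M libraries 6.48, 4.66 and 6.67 and the siURM1 libraries 1.87 and 2.29 CPM. The siNAE1 libraries were above the control range and the siURM1 libraries below it, and both differences were called (1.21 ± 0.17, adjusted p = 3.9e-07 and -1.25 ± 0.24, adjusted p = 6.8e-05). The log2 difference between siNAE1 and siURM1 cells was 2.46 ± 0.24, adjusted p = 2.4e-10. SCN2B was at 0.423, 1.60 and 1.07 CPM in control cells and 0.515, 0.197 and 0 in siUBE2M cells, overlapping ranges, and was called lower there (-2.10 ± 0.75, adjusted p = 0.014), a call lost without control replicate 2 (-1.63, adjusted p = 0.090) and without siUBE2M replicate 3 (-1.53, adjusted p = 0.071). Without siUBE2M replicate 1 it was -3.23.

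SCNN1D, the delta subunit of the epithelial sodium channel, was at 28.9, 27.7 and 24.6 CPM in control. Values were 11.7, 8.81 and 15.0 CPM in siNAE1, 14.4, 16.7 and 19.2 in siUBE2M and 12.6 and 12.3 in siURM1 libraries. Every knockdown library was below control. It was called in siNAE1 (-1.21 ± 0.14, adjusted p = 4.5e-09) and siURM1 cells (-1.12 ± 0.15, adjusted p = 3.3e-07), and in siUBE2M cells it was under the fold threshold (-0.69 ± 0.13, adjusted p = 4.3e-05). ASIC1, the highest of this family in control cells, was higher in siURM1 cells by less than the fold threshold (0.83 ± 0.08, adjusted p = 4e-10). ASIC4 was counted with 8, 11 and 5 fragments in control, 6, 10 and 3 in siNAE1, 21, 23 and 12 in siUBE2M and 2 and 6 in siURM1 libraries. The fitted log2 fold change in siUBE2M cells was 1.38.

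UNC79 belongs to the complex of the sodium leak channel NALCN, which had too few counts to be tested. It was at 1.69, 1.54 and 1.89 CPM in control cells. It was at 0.615, 0.979 and 0.628 in siNAE1 cells, 1.03, 0.459 and 0.843 in siUBE2M cells and 1.87 and 0.693 in siURM1 cells. The siNAE1 and siUBE2M libraries lay below control and the siURM1 libraries did not both do so. It was called in siNAE1 cells (-1.18 ± 0.45, adjusted p = 0.023), a call lost with DESeq2 (adjusted p = 0.058) and when 1 of control replicate 3, siNAE1 replicate 1 or siNAE1 replicate 3 was left out (log2 fold change -1.05 to -1.10, adjusted p = 0.065 to 0.076). In siUBE2M cells (-1.14 ± 0.44, adjusted p = 0.031) it was lost with DESeq2 (adjusted p = 0.066) and when 1 of control replicate 1, control replicate 3, siUBE2M replicate 2 or siUBE2M replicate 3 was left out (log2 fold change -0.85 to -1.21, adjusted p = 0.051 to 0.15).

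Calcium channel genes gave 1 higher and 1 lower of 24 tested in siNAE1 cells, 1 and 2 in siUBE2M cells, and 1 and 1 in siURM1 cells, beside the all-gene shares of 5.3% and 8.61%, 3.22% and 3.89%, and 2.89% and 4.73%. The 1 higher in siUBE2M cells was CATSPERD, which is set aside. CACNA1B, the N-type pore of presynaptic terminals, was at 6.52, 4.80 and 6.06 CPM in control cells. The siNAE1 cells had 5.61, 4.75 and 4.31, the siUBE2M cells 2.80, 3.34 and 2.11 and the siURM1 cells 14.0 and 9.28 CPM. The siUBE2M libraries were below control and the siURM1 libraries above it. Against control it was called lower in siUBE2M cells (-1.07 ± 0.22, adjusted p = 0.00012) and higher in siURM1 cells (1.01 ± 0.20, adjusted p = 0.00011). Both calls lay near the fold threshold: the first was lost without control replicate 1 (-0.97, adjusted p = 0.0015) and without siUBE2M replicate 3 (-0.91, adjusted p = 0.0017), and the second without control replicate 2 (0.90, adjusted p = 0.0010) and without siURM1 replicate 1 (0.68, adjusted p = 0.037) and, at 0.94, with the replicate number as a block and, at 0.98, in fits on genes with at least 10 counts in every library or on protein-coding genes. The log2 difference of siUBE2M minus siURM1 was -2.08 ± 0.23, adjusted p = 5.5e-09 and kept its call without any 1 library.

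CACNA1G, the T-type pore Cav3.1, was not called against control, with log2 fold changes of 0.80 ± 0.19, adjusted p = 0.00072 in siNAE1, 0.47 ± 0.20, adjusted p = 0.048 in siUBE2M and -0.98 ± 0.26, adjusted p = 0.0020 in siURM1 cells. Its differences between knockdowns were called, 1.78 ± 0.25, adjusted p = 5.7e-07 for siNAE1 minus siURM1 and 1.45 ± 0.25, adjusted p = 2.1e-05 for siUBE2M minus siURM1. CACNA1H, the T-type pore Cav3.2 and the highest Cav gene in control cells at 7.57 ± 0.398 FPKM, was lower in siNAE1 (-0.73 ± 0.08, adjusted p = 5.9e-09) and siUBE2M cells (-0.62 ± 0.08, adjusted p = 1.8e-07) by less than the fold threshold. CACNG4, an AMPA receptor regulatory gamma subunit, was at 0.725, 0.553 and 0.568 CPM in control and 1.92, 1.54 and 2.06 in siNAE1 cells, without overlap (1.56 ± 0.43, adjusted p = 0.0021). CATSPERD, an auxiliary subunit of the calcium channel of sperm, was counted with 2, 4 and 2 fragments in control and 12, 13 and 7 in siUBE2M libraries, a fitted log2 fold change of 2.12. It too passed the filter through siUBE2M libraries alone, and in 2 of 11 fits that left out a library it was not tested, so no test of it is given.

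Of 19 TRP and polycystin genes tested, 1 was called higher and 1 lower in siNAE1 cells, 3 and 1 in siUBE2M cells, and 2 lower in siURM1 cells, beside the same shares of all genes as for the calcium channel genes. Of the 3 in siUBE2M cells 1 was PKD1L1, which is set aside. TRPV1 encodes the heat- and capsaicin-gated cation channel of sensory neurons and lies at chr17:3565444-3609411 on the minus strand (GRCh38). It was at 13.9, 12.2 and 12.6 CPM in control. The siNAE1 libraries had 19.0, 20.4 and 16.9, the siUBE2M libraries 50.4, 53.6 and 54.7 and the siURM1 libraries 13.3 and 14.8 CPM. The siUBE2M libraries were far above all others, and the siNAE1 libraries were above control. Its log2 fold change was 2.04 ± 0.10, adjusted p = 5.2e-17 in siUBE2M cells, 0.55 ± 0.11, adjusted p = 5.4e-05 in siNAE1 cells and 0.12 in siURM1 cells (adjusted p = 0.45). The log2 difference of siNAE1 minus siUBE2M was -1.49 ± 0.10, adjusted p = 8.1e-14, and that of siUBE2M minus siURM1 1.92 ± 0.11, adjusted p = 1.5e-14.

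TRPV3, a warmth-gated channel of keratinocytes, is the next gene, 7449 bases from TRPV1 on the same strand, and it was at 1.39, 2.27 and 1.20 CPM in control cells and 0.589, 0.393 and 0.702 in siUBE2M cells. It was called lower there (-1.52 ± 0.44, adjusted p = 0.0039), a call lost without control replicate 2 (log2 fold change -1.19, adjusted p = 0.054), and it was lower in siUBE2M than in siURM1 cells (-1.54 ± 0.48, adjusted p = 0.0097). In GENCODE v44 the readthrough gene ENSG00000262304 shares 27.5% of the exon bases of TRPV1 and SHPK shares 4.38%, both on the same strand. SHPK was lower in siUBE2M cells (-0.80 ± 0.20, adjusted p = 0.0013). It was higher in siNAE1 (0.925, adjusted p = 3.3e-05) and siURM1 cells (0.655, adjusted p = 0.0062), each by less than the fold threshold. The part of these genes in the TRPV1 counts was not tested.

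TRPV2 was at 1.21, 1.78 and 1.07 CPM in control. Values were 0.538, 0.419 and 0.449 CPM in siNAE1, 0.663, 0.787 and 0.983 in siUBE2M and 0.312 and 0.485 in siURM1 libraries, and all knockdown libraries were below control. It was called in siNAE1 cells (-1.52 ± 0.50, adjusted p = 0.0083), lost without control replicate 2 (log2 fold change -1.27, adjusted p = 0.057). It was also called in siURM1 cells (-1.75 ± 0.58, adjusted p = 0.011), lost without control replicate 2 (-1.50, adjusted p = 0.057) and without siURM1 replicate 1 (-1.46, adjusted p = 0.13). TRPM6, a magnesium channel of kidney and gut, was at 1.57, 1.35 and 1.70 CPM in control and 0.624 and 0.831 in siURM1 cells (-1.08 ± 0.45, adjusted p = 0.048), and its call was lost with DESeq2 (adjusted p = 0.097), in a fit with no filter on low counts (adjusted p = 0.092), in a fit of siURM1 and control libraries alone (adjusted p = 0.054), with the replicate block (adjusted p = 0.066), and when 1 of control replicate 1, control replicate 2, control replicate 3, siNAE1 replicate 1, siUBE2M replicate 1, siUBE2M replicate 2, siURM1 replicate 1 or siURM1 replicate 2 was left out (log2 fold change -0.88 to -1.29, adjusted p = 0.051 to 0.26).

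TCAF2, a regulator of TRPM8, was at 0.845, 0.430 and 0.379 CPM in control and 1.77, 1.47 and 0.987 in siNAE1 cells (1.34 ± 0.52, adjusted p = 0.025), and that call was lost with DESeq2 (adjusted p = 0.060) and when 1 of control replicate 2, control replicate 3, siNAE1 replicate 1 or siNAE1 replicate 2 was left out (log2 fold change 1.14 to 1.32, adjusted p = 0.054 to 0.093). PKD1L1, a polycystin of the cilia that set left-right asymmetry, was counted with 2, 3 and 5 fragments in control, 3, 2 and 5 in siNAE1, 12, 28 and 16 in siUBE2M and 1 and 2 in siURM1 libraries. The siUBE2M libraries were above all others, with a fitted log2 fold change of 2.60 (2.25 to 3.02 over the fits that left out 1 library). The gene reached 10 fragments in siUBE2M libraries only and so passed the filter through the group in which it was high, and no test of it is given. TRPC1, the highest TRP pore in control cells, was lower in each knockdown by less than the fold threshold (-0.50, -0.41 and -0.69, adjusted p = 3.4e-05, 0.00044 and 2.9e-06). PKD2 was not called in any knockdown (-0.11, -0.11 and -0.18, adjusted p = 0.23, 0.25 and 0.087).

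The HCN genes encode the pacemaker channels, and 3 of them were tested. HCN2 was at 14.2, 11.3 and 12.2 CPM in control. It was at 19.7, 19.5 and 24.0 in siNAE1 cells, 21.7, 21.2 and 23.6 in siUBE2M cells and 33.8 and 27.6 in siURM1 cells. Every knockdown library was above control, and HCN2 was called in siURM1 cells (1.29 ± 0.13, adjusted p = 5.4e-10) and under the fold threshold in siNAE1 (0.74 ± 0.12, adjusted p = 3.4e-06) and siUBE2M cells (0.82 ± 0.12, adjusted p = 8e-07). HCN4, the sinoatrial form, was at 8.57, 5.90 and 7.13 CPM in control. In siNAE1 cells it was at 2.61, 2.10 and 2.33, in siUBE2M cells at 5.23, 3.41 and 5.34 and in siURM1 cells at 3.74 and 3.88, and every knockdown library was below control. It was called in siNAE1 cells (-1.62 ± 0.23, adjusted p = 2.4e-07), beside -0.63 ± 0.20, adjusted p = 0.0099 in siUBE2M and -0.92 ± 0.23, adjusted p = 0.0016 in siURM1 cells. HCN3, the highest of them in control cells, was not called (0.33, -0.03 and 0.14, adjusted p = 0.00093, 0.81 and 0.22).

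Of 15 chloride and anion genes tested, VDAC1 was among those called. VDAC1, the main porin of the outer mitochondrial membrane, was at 152, 165 and 155 CPM in control. The siNAE1 libraries had 407, 418 and 396, the siUBE2M libraries 279, 268 and 297 and the siURM1 libraries 329 and 341 CPM. No knockdown library overlapped control or another knockdown, and the order from low to high was control, siUBE2M, siURM1 and siNAE1. Against control its log2 fold change was 1.37 ± 0.06, adjusted p = 1.3e-18 in siNAE1 cells, 1.09 ± 0.07, adjusted p = 1.3e-14 in siURM1 cells and 0.84 ± 0.06, adjusted p = 5.1e-13 in siUBE2M cells, the last under the fold threshold. In FPKM, VDAC1 went from 49.3 ± 2.33 (SD, n = 3) in control cells to 127 ± 3.38 in siNAE1 cells, above VDAC2 in the same cells at 84.2 ± 4.48.

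VDAC2 and VDAC3 were not called. VDAC2 had log2 fold changes of 0.26 ± 0.07, adjusted p = 0.0010 in siNAE1, 0.32 ± 0.07, adjusted p = 0.00015 in siUBE2M and 0.09 ± 0.07, adjusted p = 0.36 in siURM1 cells, and VDAC3 of 0.37 ± 0.07, adjusted p = 1.5e-05, -0.15 ± 0.07, adjusted p = 0.068 and 0.34 ± 0.07, adjusted p = 0.00025. CLCN3 was lower in each knockdown by less than the fold threshold, with -0.86 ± 0.08, adjusted p = 3.8e-10 in siURM1 cells the largest. CLIC4 was lower in siNAE1 cells (-0.48 ± 0.07, adjusted p = 1.8e-07).

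Of the 11 other genes tested, HVCN1 and ZACN were called, 1 lower and 1 higher, both in siNAE1 cells, where 8.61% and 5.3% of all genes were. HVCN1, the voltage-gated proton channel, was at 1.21, 1.66 and 2.15 CPM in control and 0.384, 0.629 and 0.359 in siNAE1 cells, without overlap (-1.82 ± 0.48, adjusted p = 0.00098). TCTN1, on the opposite strand, shares 19.9% of its exon bases and fell in the same cells from 60.7 ± 2.05 CPM (SD, n = 3) to 18.3 ± 2.33 (-1.73 ± 0.10, adjusted p = 4.6e-16). The part of TCTN1 in the HVCN1 counts was not tested. ZACN, a zinc-activated channel, was at 0.302, 0.738 and 0.694 CPM in control and 2.46, 1.12 and 2.33 in siNAE1 cells (1.75 ± 0.48, adjusted p = 0.0023). EXOC7, on the opposite strand, shares 61.6% of its exon bases and was at 74.5 ± 5.10 CPM in control and 82.6 ± 3.74 in siNAE1 cells (0.15, adjusted p = 0.12). PIEZO1 was lower in siUBE2M (-0.38 ± 0.07, adjusted p = 0.00011) and siURM1 cells (-0.40 ± 0.08, adjusted p = 0.00022) by less than the fold threshold.

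Between knockdowns, 13 channel genes were called in siNAE1 against siUBE2M cells, 6 higher and 7 lower (5 without the 3 genes set aside), where 2.85% and 4.99% of all genes were. In siNAE1 against siURM1 cells 9 were higher and 12 lower, where 3.34% and 3.41% of all genes were, and in siUBE2M against siURM1 cells 10 were higher (8 without them) and 9 lower, where 3.45% and 1.95% of all genes were. Of these calls 7 of 13, 10 of 21 and 13 of 19 were kept without any 1 library. For potassium channel genes, 4 of 51 were higher and 9 lower in siNAE1 than in siURM1 cells, with a median log2 difference of -0.37, and the Kv pores had 1 higher and 5 lower of 17. In siUBE2M against siURM1 cells the Kv pores had 1 higher and 4 lower.

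The largest differences between knockdowns were in PKD1L1 and KCNA2 besides the genes above. For PKD1L1 the fitted log2 difference of siUBE2M minus siURM1 was 3.60, with the same limit as above, a value that went from 3.14 without siURM1 replicate 1 to 4.19 without siURM1 replicate 2, and in siNAE1 minus siUBE2M it was -2.26. KCNA2 was at 3.50 and 1.46 CPM in siURM1 cells, and its log2 difference was -2.47 ± 0.56, adjusted p = 0.0004 for siUBE2M minus siURM1, which was not called without siURM1 replicate 1 (log2 fold change -1.70, adjusted p = 0.071) and was -3.31 without siUBE2M replicate 3. For ASIC4 the fitted log2 difference of siUBE2M minus siURM1 was 2.26, and it was 1.62 without siURM1 replicate 1 and 3.29 without siURM1 replicate 2. KCNJ5 was lower in siNAE1 than in siURM1 cells (-2.58 ± 0.97, adjusted p = 0.016), with 3, 1 and 1 against 12 and 13 fragments, and the call was lost when 1 of siNAE1 replicate 2, siURM1 replicate 1 or siURM1 replicate 2 was left out (log2 fold change -2.26 to -2.71, adjusted p = 0.055 to 0.089). Without siNAE1 replicate 1 it was -3.25. ZACN (1.62 ± 0.49, adjusted p = 0.0060) was higher, and HVCN1 (-1.46 ± 0.49, adjusted p = 0.012) lower, in siNAE1 than in siUBE2M cells, the second lost without siUBE2M replicate 2 (log2 fold change -1.21, adjusted p = 0.075).

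Channel and transport genes outside the description rule, and some partners, were read from the same fit. The list held 75 gene names, with roles such as calcium release, store entry, volume regulation, purinergic signalling and ion pumping, and 57 were tested. Among those tested, KCTD5, NEDD4, NEDD4L, WWP1 and WWP2 are partners, not channels or transporters. TMBIM5 and PACC1 had no entry in the deposited table under those names. In siNAE1 cells 0 were called higher and 4 lower, in siUBE2M cells 2 and 2, and in siURM1 cells 0 and 3. The shares of all genes were 5.3% and 8.61%, 3.22% and 3.89%, and 2.89% and 4.73% in that order. The related genes had median log2 fold changes of 0.11, 0.10 and 0.06. At an unadjusted p under 0.05 edgeR gave 24 higher in siNAE1 and 19 higher in siURM1 cells, and DESeq2 also called 0 higher in each. BEST1, a calcium-activated chloride channel of the retinal pigment epithelium, was lower in each knockdown. It was at 32.5 ± 3.35 CPM (SD, n = 3) in control cells, 1.82 ± 0.314 in siNAE1 cells, 5.67 ± 0.696 in siUBE2M cells and 3.42 ± 0.159 (n = 2) in siURM1 cells. The log2 fold changes in that order of knockdowns were -4.15 ± 0.19, adjusted p = 8.1e-20, then -2.51 ± 0.14, adjusted p = 4.3e-16, then -3.25 ± 0.18, adjusted p = 2.9e-16. FTH1, on the opposite strand, shares 14.6% of the exon bases of BEST1 and was not called in any knockdown (-0.10, -0.13 and 0.18).

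P2RX1, an ATP-gated cation channel of platelets and smooth muscle, was lower in each knockdown too (-2.35 ± 0.35, adjusted p = 3.4e-07 in siNAE1, -2.34 ± 0.34, adjusted p = 4.5e-07 in siUBE2M and -3.85 ± 0.53, adjusted p = 2.3e-08 in siURM1 cells). RYR3, a calcium release channel of the endoplasmic reticulum, was lower in siNAE1 (-1.47 ± 0.25, adjusted p = 4.8e-06) and siURM1 cells (-1.26 ± 0.27, adjusted p = 0.00024), the second lost without siURM1 replicate 1 (-0.85, adjusted p = 0.030). P2RX6, another ATP-gated subunit, was called lower in siNAE1 cells (-1.72 ± 0.79, adjusted p = 0.046), a call lost with DESeq2 (adjusted p = 0.11) and when 1 of control replicate 1, control replicate 2, siNAE1 replicate 1, siNAE1 replicate 2 or either siURM1 replicate was left out (adjusted p = 0.051 to 0.18). RYR1, the release channel of skeletal muscle, was called higher in siUBE2M cells (1.10 ± 0.45, adjusted p = 0.042), and this was lost with DESeq2 (adjusted p = 0.085) and when 1 of control replicate 1, control replicate 3, siUBE2M replicate 2 or siUBE2M replicate 3 was left out (adjusted p = 0.11 to 0.19). SLC8A1, a sodium-calcium exchanger, lay on the fold threshold there (1.01 ± 0.13, adjusted p = 1.8e-07) and fell just under it, at 0.94 to 1.00, in the fits on filtered, protein-coding or siUBE2M and control libraries alone and without control replicate 3, siNAE1 replicate 3, siUBE2M replicate 1 or siUBE2M replicate 2.

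Exon sharing between genes limits these counts. All 169 channel genes are in GENCODE v44, 59 with the start and end of the deposited table, and 70 share exon bases there with a gene on the opposite strand, 6 of them over 25% of their exon bases. The paper's methods describe libraries that keep the strand, made with dUTP. Whether the authors' counting used the strand is not given in the sources used here, so fragments of overlapping genes cannot be told apart in the deposited counts. PKD1P1, listed as protein-coding, is a near copy of PKD1, and fragments may be split between them.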

How the data were processed

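Messenger RNA of HEK293T cells was sequenced in 11 libraries. Per the labels and the paper's methods, the authors cleaned the reads with fastp, used HISAT2 2.0.5 and the GRCh38 build for alignment, and counted fragments per gene with featureCounts 1.5.0-p3. The annotation version and the strand setting are not given in the sources used here. The deposited counts are raw whole numbers, and the authors divided them by gene length and library size to give the deposited FPKM values. Counting error limits genes with few fragments.

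The count tests used edgeR 4.0.16 in R 4.3.3 (TMM, filterByExpr, a quasi-likelihood fit of 11 libraries in 4 groups), tested on simulated data, and the alternatives included DESeq2 1.42.0. The 55 pairs of libraries held no identical pair, and p-values measure the spread between the libraries of a group. A call needed a p-value under 0.05 after Benjamini-Hochberg adjustment over 18368 genes and a log2 fold change of 1 or more in either direction. Genes named are those called in 2 or 3 knockdowns, the 8 highest and 8 lowest called in each, the 5 largest differences between knockdowns, the highest by FPKM in each family and the VDAC genes. Other called channel genes, KCNC1, CACNA1G, overlapping genes, related genes that were called, and NEFM were named after their values were seen. The values of some called channel genes are not reported here. The channel genes, families and lists were chosen with earlier results of these data known. Tables and plots used Python 3.11.15, pandas 2.3.3 and matplotlib 3.10.9.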

Additional observations from a re-analysis of the deposited data

How the results depend on the processing

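Of the 119 calls over the 6 comparisons, none changed sign under any alternative, and 68 were kept in every fit in which the gene was tested; 16 were lost with DESeq2, 8 with the replicate block, 4 with no filter on low counts, 3 with 2 groups per fit, 3 with protein-coding genes and 2 with a minimum of 10 counts. Replicate numbers did not pair the libraries: over 15 pairs of libraries with the same number the correlation of deviations was -0.0657 to 0.0787. With the replicate block the counts higher and lower were 12 and 9 in siNAE1 (5.22% and 8.58% of all genes), 11 and 11 in siUBE2M (3.18% and 3.81%) and 12 and 10 in siURM1 cells (2.88% and 4.66%). With at least 10 counts in every library, which left 101 channel genes of 14479 genes, the counts higher and lower were 5 and 3 in siNAE1 (3.86% and 6.39% of all genes), 6 and 1 in siUBE2M (2.03% and 2.71%) and 8 and 5 in siURM1 cells (2.24% and 3.45%). Between knockdowns they were 2 and 5 for siNAE1 minus siUBE2M (2.05% and 3.34%), 6 and 8 for siNAE1 minus siURM1 (2.6% and 2.51%) and 6 and 5 for siUBE2M minus siURM1 (2.58% and 1.58%). With no fold change threshold, in the same order, they were 36 and 30, 33 and 35, and 36 and 30 against control, beside 20.8% to 27.6% of all genes in a direction, and 24 and 28, 24 and 37, and 24 and 31 between knockdowns, beside 16.7% to 22.7%. With glmTreat, which tests against the fold threshold itself, they were 1 and 3 in siNAE1 (1.28% and 2.73% of all genes), 1 and 1 in siUBE2M (0.343% and 0.583%) and 2 and 2 in siURM1 cells (0.523% and 0.642%), and 0 and 1, 5 and 2, and 3 and 3 between knockdowns, beside 0.348% to 0.506%, where the 0 had 2 genes at an unadjusted p under 0.05. Leaving out 1 library moved 2 counts by more than 1.5 times, that of siUBE2M higher, which ranged from 7 (without siUBE2M replicate 2) to 13, and that of siUBE2M lower, which ranged from 7 (without control replicate 2) to 12. A gene with under 1 CPM had few fragments in each library, so its fold change is imprecise.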
